A study of Mus musculus with 17 samples.

Results

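miR-322-5p and miR-503-5p are microRNAs (miRNAs, short RNAs that guide repression of messenger RNAs) made from neighboring hairpins on the mouse X chromosome. They were selected by their assay names, mmu-miR-322-5p and mmu-miR-503-5p, and make up 2 of the 357 miRNA assays measured in the serum of 17 mice. Their group values in earlier results of these data were known when they were chosen, so their differences between groups are given as a description, with no test. Sera came from 7 AT-ATX mice with spontaneous tumors, 7 AT-ATX mice without tumors and 3 healthy wild-type FVB/N mice. Mice named AT-ATX are transgenic for Autotaxin, the blood enzyme that produces lysophosphatidic acid, a lipid that acts on cell receptors. The design addressed which serum miRNAs differ with the transgene and with tumors. The promoter of the transgene, the background strain of the transgenic mice, the age of the mice and the tissue of the tumors are not given in the sources used here. Tumor replicate 5, whose label holds a question mark, was treated as a tumor mouse.

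A miRNA hairpin is cut into a 5p and a 3p arm, and the loaded arm finds its targets mainly through its seed, bases 2 to 8. miR-322-5p, whose human ortholog is called miR-424, and miR-503-5p belong to the extended miR-16 family, which represses cell-cycle genes such as those for cyclin D1 and Cdc25A. In mouse muscle cells both are induced during differentiation, and in the mouse mammary gland the pair is known for its part in involution after lactation. Serum miRNAs come from many tissues and blood cells, so that the number of releasing cells and the amount released per cell cannot be told apart.

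The mature sequences show how far the pair is alike, and are given from RefSeq (GRCm38.p6), 5′ to 3′, with the seed in capitals. The 5 other measured miRNAs with the seed of miR-322-5p follow for comparison.
miR-322-5p, chrX:53054306-53054327, minus strand: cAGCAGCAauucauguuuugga
miR-503-5p, chrX:53054027-53054049, minus strand: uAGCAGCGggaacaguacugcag
miR-16-5p, chr3:69009918-69009939, plus strand, and chr14:61631936-61631957, minus strand: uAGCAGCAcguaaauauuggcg
miR-15a-5p, chr14:61632075-61632096, minus strand: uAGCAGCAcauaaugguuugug
miR-15b-5p, chr3:69009775-69009796, plus strand: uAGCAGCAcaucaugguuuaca
miR-195a-5p, chr11:70235062-70235082, plus strand: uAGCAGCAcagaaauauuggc
miR-497-5p, the 5p arm of Mir497, chr11:70234730-70234751, plus strand: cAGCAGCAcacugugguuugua
Counted from 1 at the 5′ end, the seed of miR-503-5p differs from that of miR-322-5p by A8G. Of 1679 mature mouse names in the RefSeq table, 10 carry the seed of miR-322-5p and 1, miR-503-5p itself, carries the other. Base by base from the 5′ end with no gaps, the pair is equal at 11 of 22 bases, while miR-322-5p equals miR-15b-5p at 16 of 22 and miR-16-5p at 12 of 22.

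The hairpins are given to show both arms of each, which were assayed separately, with the arms in capitals.
Mir322, chrX:53054255-53054349, minus strand: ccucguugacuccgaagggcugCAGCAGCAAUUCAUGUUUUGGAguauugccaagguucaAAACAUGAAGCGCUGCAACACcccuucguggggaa
Mir503, chrX:53053984-53054054, minus strand: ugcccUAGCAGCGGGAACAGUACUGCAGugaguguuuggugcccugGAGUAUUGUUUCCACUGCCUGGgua
The hairpins lie 200 bp apart. They are the first of 7 hairpins within 6353 bp, in the order Mir322, Mir503, Mir351, Mir542, Mir450-2, Mir450-1 and Mir450b along the minus strand.

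Serum RNA was measured by SYBR Green real-time PCR, and the deposited value is the quantification cycle (Ct), which is lower where there is more template. A level here is the average Ct over the 252 miRNA assays that every serum gave, minus the Ct of the assay, on a log2 scale that assumes full PCR efficiency. It is relative to the mean of the panel, not an amount per volume of serum. Between 312 and 356 miRNA assays were detected in tumor mice, 330 to 356 in tumor-free mice and 340 to 355 in wild-type mice. The mean Ct of the 252 assays was 29.8 ± 1.18 cycles in tumor mice (SD, n = 7), 29.4 ± 0.83 in tumor-free mice (n = 7) and 28.4 ± 1.50 in wild-type mice (n = 3). The hemolysis index, which takes the Ct of miR-451a, a red blood cell miRNA, off that of miR-23a-3p, was 3.97 ± 1.97, 4.38 ± 0.84 and 5.61 ± 2.07 cycles in the same groups. Of the 338 assays tested in limma, 5 passed an adjusted p of 0.05 between tumor and tumor-free mice (1.48%), 2 between tumor-free and wild-type mice (0.592%) and 28 between tumor and wild-type mice (8.28%). Both comparisons with wild type share the same 3 control mice.

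miR-322-5p was higher relative to the panel in tumor mice than in tumor-free mice. Its lowest, median and highest levels were 1.39, 2.57 and 3.52 in the 7 tumor mice and 0.24, 1.18 and 1.67 in the 7 tumor-free mice. The 3 wild-type mice stood at 2.09, 1.63 and 2.32. Of the tumor mice 6 lay above all tumor-free mice, and tumor replicate 7, the lowest, overlapped them. Counts of mice beyond all of another group were not made over the whole panel. The highest value was that of tumor replicate 5. In raw cycles the assay read 25.2 to 29.1 in tumor mice, 27.5 to 28.9 in tumor-free mice and 24.9, 26.5 and 27.7 in wild-type mice.

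The mean level of miR-322-5p was 2.42 ± 0.71 in tumor mice, against 1.08 ± 0.47 in tumor-free mice (SD, n = 7 each), a log2 difference of 1.34 (SE 0.36, 2.53-fold). The difference lay between 0.98 and 1.46 under the 4 other scalings (the median of the 252 assays, 5 reference miRNAs, raw Ct and spike-ins) and between 1.15 and 1.51 with each mouse left out in turn. It was 1.35 with the hemolysis index as a covariate. The deposited values of 4 sera (tumor replicate 1 and tumor-free replicates 4, 5 and 7) have a single kind of decimal ending where those of the other 13 have 2 kinds, and without these 4 sera the difference was 1.38. In wild-type mice the mean was 2.02 ± 0.35 (SD, n = 3), so that tumor-free mice differed from wild type by -0.93 (SE 0.46) and tumor mice by 0.40 (SE 0.46). Of the tumor-free mice 6 lay below all wild-type mice, and tumor-free replicate 2 lay within them. The order of the means was thus tumor, wild type, tumor-free, and the levels of each neighboring pair overlapped.

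The place of wild type in this order depended on the scaling. With raw Ct and with spike-ins, miR-322-5p differed between tumor and wild-type mice by -0.98 and -0.87, while the median difference of all assays in that comparison moved to -1.22 and -1.08, against 0.19 relative to the panel. Between tumor-free and wild-type mice it differed by -1.95 and -2.08 under the same scalings, where the median of all assays was -1.07 and -1.19. Taking those medians off would in effect restore a scaling to the panel, so it cannot show whether the order holds under another scaling.

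miR-503-5p was higher relative to the panel in transgenic than in wild-type sera. It was detected in all 14 transgenic mice and in 2 of 3 wild-type mice. Its lowest, median and highest levels were -3.16, -1.96 and -0.99 in tumor mice, against -3.35, -2.55 and -1.85 in tumor-free mice. The wild-type levels were -5.36 in replicate 2 and -4.33 in replicate 3. All 7 tumor mice and all 7 tumor-free mice lay above both wild-type mice with a value, while the 2 transgenic groups overlapped. This separation rests on 2 wild-type values and was not counted over all assays.

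Wild-type replicate 1 gave no value for miR-503-5p although it had the most template of the 17 sera, with a mean Ct of 27.0 over the 252 assays. Its other arm, miR-503-3p, was read there at a Ct of 31.5. The highest Ct in the table is just under 37, and a Ct of 37 in that serum would be a level of -10.0. On the Ct scale miR-503-5p came up at 29.9 to 33.6 in tumor mice, 31.4 to 33.0 in tumor-free mice, and 33.5 and 34.3 in the other 2 wild-type sera. On this raw scale tumor replicate 1, at 33.6, came up later than wild-type replicate 2.

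The mean level of miR-503-5p was -2.05 ± 0.85 in tumor mice (SD, n = 7), -2.56 ± 0.45 in tumor-free mice (n = 7) and -4.84 ± 0.73 in wild-type mice (n = 2). Tumor mice differed from wild type by 2.79 (SE 0.60, 6.92-fold) and tumor-free mice by 2.28 (SE 0.60, 4.86-fold). The undetected wild-type serum does not enter these means. With its Ct set to 37 the differences were 4.51 and 4.0. They were 2.10 and 1.95 with raw Ct, 2.33 and 1.89 with the hemolysis index as a covariate, and 2.78 and 2.30 without the 4 sera with a single kind of decimal ending. Between tumor and tumor-free mice miR-503-5p differed by 0.51 (SE 0.40), with 3 of 7 tumor mice above all tumor-free mice. The order of the means was tumor, tumor-free, wild type.

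**Figure D1:**
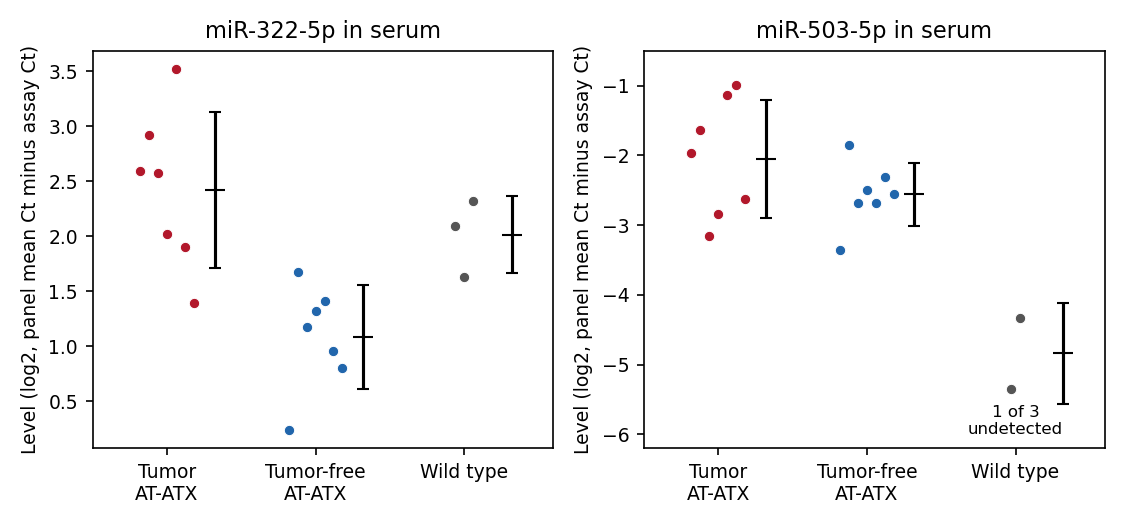
Level of miR-322-5p (left) and miR-503-5p (right) in each serum, on a log2 scale relative to the mean of the panel. Points are mice, and the bars beside them give mean and SD; miR-503-5p was undetected in 1 of 3 wild-type mice. miR-322-5p is lowest in tumor-free mice, and miR-503-5p is lowest in wild-type mice.

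As a count, 0 of the pair passed the threshold between tumor and tumor-free mice, beside 1.48% of all assays. Between tumor-free and wild-type mice 0 passed, beside 0.592%, and between tumor and wild-type mice 1 passed, miR-503-5p. Beside this last count stand 8.28% of all assays called in either direction, 4.14% higher and 4.14% lower. These counts come from the contrasts known at the choice of the pair and support nothing. The last call was lost with raw Ct, spike-ins, a fit of the 2 groups alone and without wild-type replicate 2. Exact permutation of 7 against 2 values cannot give a p below 0.0278 and so could not have called it. In the first comparison miR-322-5p passed without tumor-free replicate 2 and without tumor replicate 7, where 9 and 8 of all 338 assays were called. It also passed with the hemolysis index as a covariate (13 of 338) and where only assays detected in all sera were tested (6 of 252). In the second, miR-503-5p passed with missing values set to a Ct of 37 (4 of 338) and in a fit of the 2 groups alone (15). It passed too without wild-type replicate 1 (9), tumor-free replicate 1 (6) or tumor replicate 5 (6). These passes rest on the same known contrasts and support nothing about the pair.

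The difference between the 2 assays within a serum does not depend on any scaling. miR-322-5p came up earlier than miR-503-5p by 4.47 ± 0.86 cycles in tumor mice (SD, n = 7), 3.64 ± 0.30 in tumor-free mice (n = 7) and 6.82 ± 0.25 in wild-type mice (n = 2). The wild-type values were 6.99 and 6.64 cycles, above the highest tumor value of 5.73 and the highest tumor-free value of 4.10. The lowest tumor value, 2.90, was that of replicate 6. The pair therefore stood in a different proportion in transgenic and in wild-type sera, by -2.35 cycles for tumor mice and -3.17 for tumor-free mice. The values rest on the same contrasts as the choice of the pair, and on 2 wild-type mice. Such separations were not counted over other pairs of assays.

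The arms of each hairpin were set against each other in the same way. miR-322-5p came up earlier than miR-322-3p by 4.10 ± 0.95 cycles in tumor mice (SD, n = 7), 3.77 ± 0.93 in tumor-free mice (n = 7) and 4.12 ± 1.16 in wild-type mice (n = 3). Each of these group means lay within the SD of the others. miR-503-5p came up earlier than miR-503-3p by 1.17 ± 0.98 cycles in tumor mice (n = 7), against 2.22 ± 0.96 in tumor-free mice (n = 7). In the 2 wild-type mice with both arms the difference was 0.63 and -0.96, below all 7 tumor-free mice and below 5 of 7 tumor mice. How often other pairs of assays separate in this way was not counted.

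**Figure D2:**
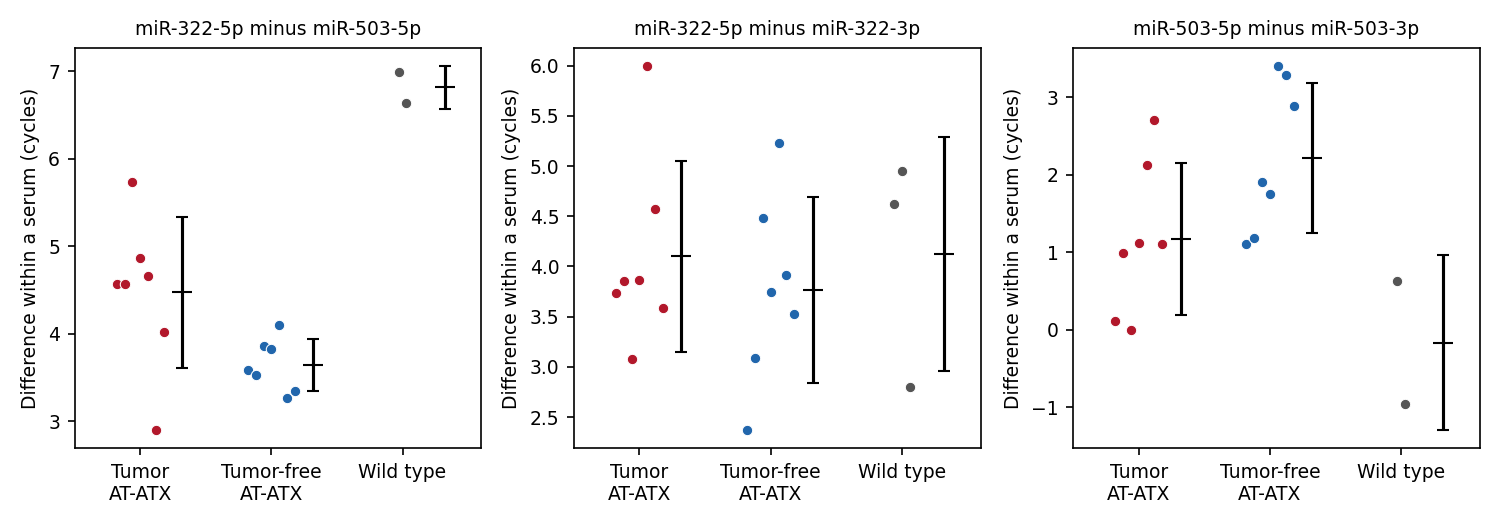
Differences between 2 assays in the same serum, in cycles, free of scaling: miR-322-5p minus miR-503-5p, miR-322-5p minus miR-322-3p and miR-503-5p minus miR-503-3p, where a positive value means that the first assay came up earlier. Points are mice, bars give mean and SD; the 2 wild-type values of the first panel, 6.99 and 6.64, lie above all transgenic mice.

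Within groups, the levels of the pair were positively related, without passing the test. With group means taken off, r was 0.53 over the 16 sera with both (permutation p = 0.0772, adjusted p = 0.232 over 3 relations) and rho was 0.54 (permutation p = 0.0669, adjusted p = 0.201). Without the 2 sera farthest from the median of miR-503-5p, r was 0.50. Tumor replicate 6 weighed most: without it r was 0.76 (permutation test, adjusted p = 0.0145), and over the 17 fits that each left out 1 mouse r ran from 0.40 to 0.76. The relation passed with reference miRNAs (r = 0.70, permutation test, adjusted p = 0.0334), raw Ct (r = 0.81, adjusted p = 0.00447) and spike-ins (r = 0.84, adjusted p = 0.0112), the last 2 of which keep the variation in total template that both assays share. With reference miRNAs, r with the hemolysis index was -0.65 for miR-322-5p and -0.81 for miR-503-5p. The part of that shared variation in the relation of the pair was not tested. With the undetected serum set to a Ct of 37, r was 0.23. Without the 4 sera with a single kind of decimal ending r was 0.55.

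**Figure D3:**
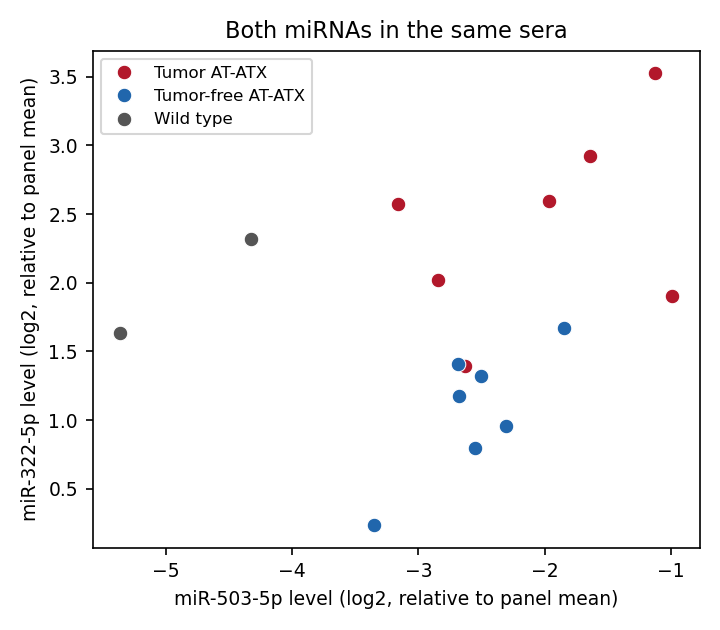
Level of miR-322-5p against level of miR-503-5p in the 16 sera with both, log2 relative to the mean of the panel, colored by group. Wild-type mice lie to the left at low miR-503-5p, tumor mice above most tumor-free mice, and within groups the points are related with r = 0.53.

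Neither level was related to the hemolysis index at the threshold. For miR-322-5p r was 0.07 (n = 17, permutation p = 0.825, adjusted p = 0.825) and rho 0.10 (permutation p = 0.736, adjusted p = 0.736). Leaving out the 2 farthest sera gave r = 0.42. For miR-503-5p r was -0.40 (n = 16, permutation p = 0.232, adjusted p = 0.348) and rho -0.47 (permutation p = 0.139, adjusted p = 0.209). Leaving out the 2 farthest gave r = -0.15, so that the value rests on those sera. With reference miRNAs as the scaling both passed, at -0.65 for miR-322-5p (permutation test, adjusted p = 0.0334) and -0.81 for miR-503-5p (adjusted p = 0.0145).

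The other assays of the cluster were not used to choose the pair. The panel held 10 of them, 7 named for mouse and 3 for rat, and all 10 passed the filter on detection. Each rat assay shares its name with a mouse assay, so that the 10 are not independent. Between tumor and tumor-free mice 9 of the 10 were above 0 and 1 below, beside 188 above and 150 below of all 338. Their median log2 difference was 0.57 against 0.14 over all assays. None of the 10 passed in limma, beside 1.48% of all assays, and 3 had an unadjusted p under 0.05, beside 57 of the 338. An exact permutation test of each assay called 0 of the 10, with 4 unadjusted. It called 0 of all 338 as well, with 57 unadjusted, so that its 0 adds nothing about the cluster. The smallest adjusted p in limma was 0.117, and over 33 alternatives it ran from 0.0449 to 0.998.

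miR-503-3p, the other arm of the miR-503 hairpin, had the largest of these differences. Its lowest, median and highest levels were -3.97, -3.26 and -2.08 in tumor mice, against -6.09, -4.58 and -3.04 in tumor-free mice. The log2 difference was 1.56 (SE 0.49, limma adjusted p = 0.117), with 2 of 7 tumor mice above all tumor-free mice. It passed without tumor-free replicate 2 (adjusted p = 0.0449), the only alternative of 33 in which a cluster assay passed in this comparison.

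miR-322-3p, the other arm of the miR-322 hairpin, differed by 1.00 (SE 0.49, limma adjusted p = 0.294), and the rat assay of the same name by 1.18 (SE 0.51, adjusted p = 0.247). Those 2 assays target near-identical RNAs and are not independent. miR-450b-5p, from the far end of the cluster, had levels of -5.09 ± 0.57 in tumor mice (SD, n = 7) and -6.21 ± 0.44 in the 5 of 7 tumor-free mice with a value. Its difference was 1.13 (SE 0.39, limma adjusted p = 0.135), with 6 of 7 tumor mice above all of those. miR-542-5p differed by 0.65, miR-450b-3p by 0.46 and miR-450a-5p by 0.37, with 0.49 in the rat assay. miR-351-5p, whose seed is that of the miR-125 family, differed by 0.48 in the mouse assay and -0.10 in the rat assay.

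Against wild type, the other cluster assays had smaller differences above 0 than miR-503-5p. miR-503-5p was chosen with these contrasts known and has 2 wild-type values where each of the 10 has 3, so this order supports nothing. Between tumor-free and wild-type mice 4 of the 10 assays were above 0 and 6 below, beside 172 and 166 of all 338. None passed in limma, beside 0.592% of all assays, and 0 had an unadjusted p under 0.05, beside 76 of the 338. Exact permutation called 0, with 1 unadjusted. The median of the 10 was -0.19 against 0.03 over all assays. This median had no settled direction, at -0.77 where wild-type replicate 2 was left out and 0.45 where replicate 3 was. Exact permutation of 7 against 3 mice could call an assay only if at least 57 of the 338 stood at its smallest p. miR-503-3p stood at -4.78 ± 1.02 in tumor-free mice (SD, n = 7) and -4.63 ± 1.31 in wild-type mice (n = 3), a difference of -0.14 (SE 0.63, limma adjusted p = 0.888), beside 2.28 for the 5p arm. The difference between these 2 contrasts was not tested. miR-322-3p differed by -0.58 (SE 0.63) and miR-450a-5p by 0.71 (SE 0.46), with 6 of 7 tumor-free mice above all wild-type mice.

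Between tumor and wild-type mice 8 of the 10 assays were above 0, beside 183 of all 338. Their median was 0.70 against 0.19 over all assays. None passed in limma, beside 8.28% of all assays, and 3 had an unadjusted p under 0.05, beside 85 of the 338. Exact permutation, under the same limit of 7 against 3 mice, called 0, with 2 unadjusted. The largest difference was that of miR-450b-5p, at 1.42 (SE 0.46, limma adjusted p = 0.0563), followed by miR-503-3p at 1.41 (SE 0.63, adjusted p = 0.176). miR-450b-5p passed without tumor replicate 4 (adjusted p = 0.032) and miR-450a-5p without tumor replicate 5 (adjusted p = 0.0412), over a range of smallest adjusted p from 0.032 to 0.228 in 32 alternatives. The median of the 10 assays rested on single wild-type mice, at 0.27 without replicate 2 and 1.22 without replicate 3, and it turned to -0.68 with raw Ct and -0.57 with spike-ins. miR-351-5p differed by -0.16 in the mouse assay and -1.25 in the rat assay.

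**Figure D4:**
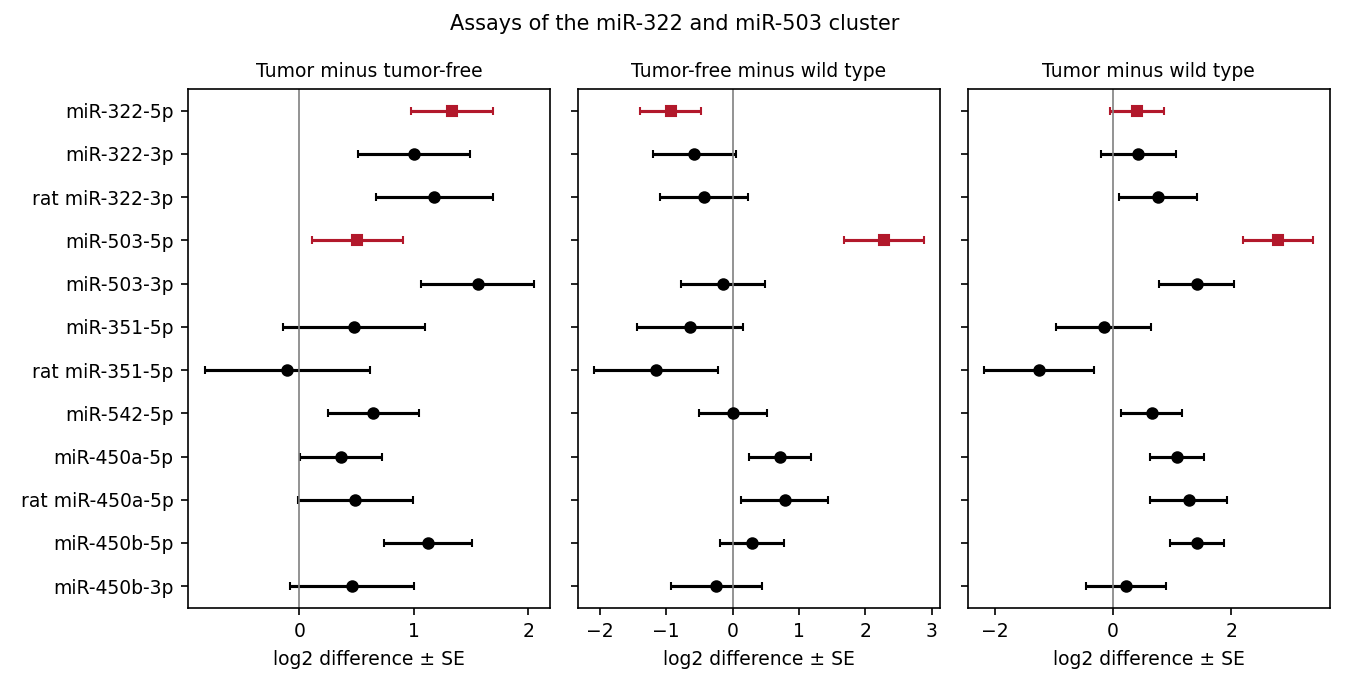
Log2 difference of levels with its SE for 12 assays of the cluster in the 3 comparisons, from the limma fit of all 17 sera; red squares are miR-322-5p and miR-503-5p, black points the other assays, and rat marks assays named for rat. Between tumor and tumor-free mice 9 of the 10 other assays lie above 0, beside 188 of all 338 assays. Against wild type miR-503-5p, at 2.28 and 2.79, lies to the right of all 10 other assays. That place rests on 2 wild-type values and on contrasts known when miR-503-5p was chosen.

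All 5 other measured miRNAs with the seed of miR-322-5p were tested, and none passed in limma in any of the 3 comparisons, although some had an unadjusted p under 0.05. There were 0 of these for tumor against tumor-free mice, 3 for tumor-free mice against wild type and 2 for tumor mice against wild type, beside 57, 76 and 85 of the 338 assays. Over all assays 1.48%, 0.592% and 8.28% were called, so that 0 calls among 5 assays do not set them apart. Exact permutation called 0 in each, with 0, 3 and 1 unadjusted in that order. It called 0 of all 338 assays in each comparison as well. Against wild type it could call an assay only if at least 57 of the 338 stood at its smallest p. Between tumor and tumor-free mice their differences ran from -0.06 for miR-195a-5p to 0.42 for miR-16-5p, with a median of 0.33 against 0.14 over all assays.

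Against wild type, members of this family differed in sign. miR-497-5p, encoded beside miR-195a, was at 1.33 ± 1.00 in tumor mice (SD, n = 7), 1.00 ± 0.58 in tumor-free mice (n = 7) and -0.49 ± 0.69 in wild-type mice (n = 3). All 7 tumor-free mice lay above all wild-type mice, a separation that was not counted over all assays. The difference was 1.49 (SE 0.57, limma adjusted p = 0.161). For tumor mice, 6 of 7 lay above all wild-type mice, at a difference of 1.81 (SE 0.57, limma adjusted p = 0.0525). In tumor mice against wild type it passed in 7 of 32 alternatives, namely scaling to the median, a Ct limit of 35, testing only assays detected in all sera, trend and robust variance, and leaving out wild-type replicate 1, tumor replicate 3 or tumor replicate 4. Over the family the smallest adjusted p ran from 0.0245 to 0.249 in that comparison.

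miR-15b-5p and miR-16-5p, which are abundant in blood cells, lay on the other side of wild type. miR-15b-5p was at 2.53 ± 1.36 in tumor mice (SD, n = 7), 2.26 ± 0.85 in tumor-free mice (n = 7) and 4.19 ± 1.75 in wild-type mice (n = 3), differences of -1.65 and -1.92 from wild type (limma adjusted p = 0.197 and 0.176). Wild-type replicate 2 stood at 6.20 and the other wild-type mice at 3.05 and 3.31, and without replicate 2 the differences were -0.65 and -0.92. That serum also had the highest hemolysis index of the 17, at 7.82, and with that index as a covariate the differences of miR-15b-5p were -0.66 and -1.18. Without wild-type replicate 2 none of the 5 assays had an unadjusted p under 0.05 between tumor-free and wild-type mice. miR-15b-5p passed for tumor mice with reference miRNAs (adjusted p = 0.049). miR-16-5p differed by -0.90 in tumor mice, against -1.32 in tumor-free mice (adjusted p = 0.353 and 0.187), miR-15a-5p by -0.52 and -0.93, and miR-195a-5p by -0.41 and -0.35.

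**Figure D5:**
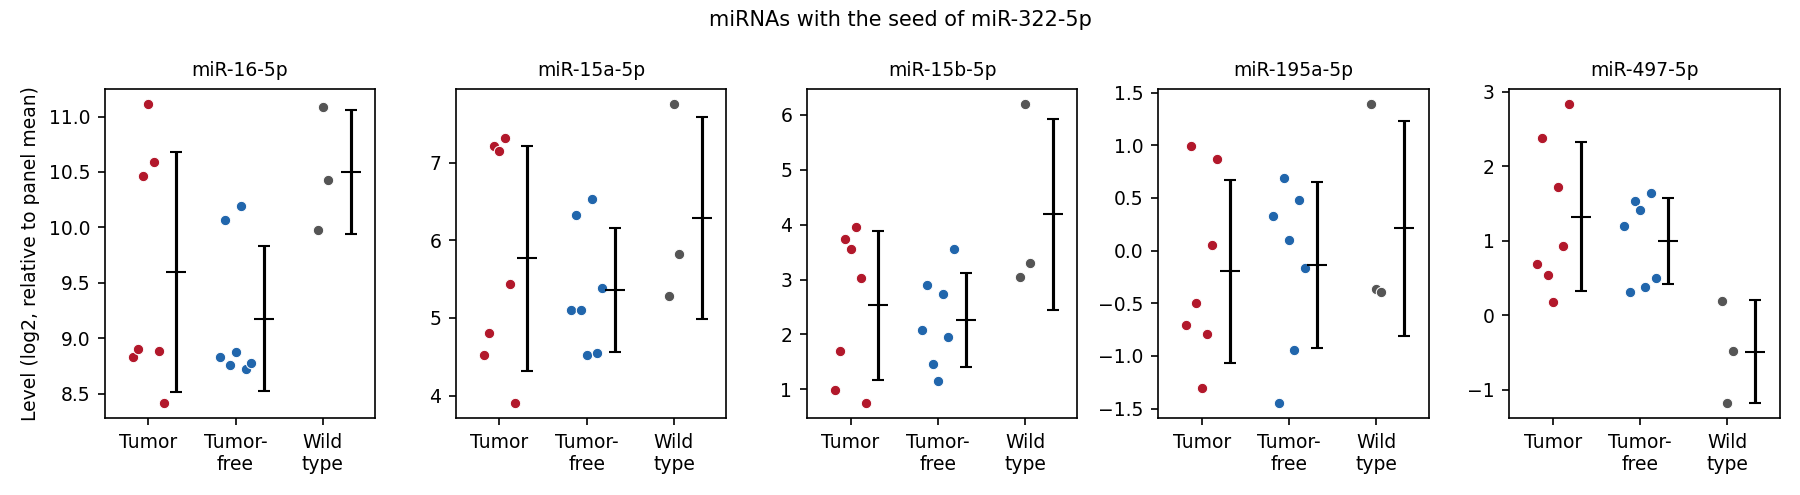
Levels of the 5 measured miRNAs with the seed of miR-322-5p, log2 relative to the mean of the panel, by group, with mean and SD beside the points. miR-497-5p is higher in 7 of 7 tumor-free mice than in any wild-type mouse, miR-15b-5p and miR-16-5p have their highest mean in wild-type mice, and no comparison passed in limma.

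The assays most like each of the pair were ranked by r of levels within groups, over at least 15 sera, as a description. For miR-322-5p, among 317 assays, they were miR-877-5p (r = 0.74), miR-1983 (0.64), the cluster assay miR-542-5p (0.55), miR-222-3p (0.54) and miR-25-3p (0.53), each over 17 sera. miR-503-5p followed in place 6. For miR-503-5p, among 291 assays, they were miR-151-3p (0.71), miR-500-3p (0.65), miR-501-3p (0.63), the rat assay of miR-223-3p (0.57) and miR-338-3p (0.57), each over 16 sera, with miR-322-5p in place 10. The other arms stood further down, miR-322-3p at r = 0.24 with miR-322-5p and miR-503-3p at r = 0.34 with miR-503-5p. All of these share the sera and the panel mean.

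Markers of other sources were measured in the same sera. The mean level of the 4 liver markers ran from 2.03 to 3.98 in tumor mice, 3.77 to 4.96 in tumor-free mice and 4.19 to 5.65 in wild-type mice. Of the 5 liver assays, rat included, 2 were called lower in tumor than in tumor-free mice, beside 1.18% of all assays. Between tumor-free and wild-type mice 0 were called lower, beside 0.296%, and 4 were lower in tumor than in wild-type mice, beside 4.14%. Both calls against tumor-free mice are assays of miR-802-5p, mouse and rat, which are not independent and are also among the 4. The 2 red blood cell markers ran from 6.57 to 10.4, 7.30 to 9.51 and 7.91 to 10.6 in the same order of groups, and the 2 endothelial ones from -0.58 to 1.82, 1.03 to 1.78 and 1.36 to 3.24. The 3 muscle markers detected in all sera ran from -0.77 to 6.93, -0.05 to 4.64 and -1.78 to 2.53, and the 3 platelet and myeloid ones from 2.80 to 5.59, 3.60 to 4.95 and 3.95 to 5.40. None of the red blood cell, endothelial or muscle assays was called in any comparison. Of the 4 platelet and myeloid assays 1 was called higher, mouse miR-223-3p, and 1 lower, miR-142-3p, both between tumor and wild-type mice. There 4.14% of all assays were called in each direction. The rat assay of miR-223-3p differed by 1.02 and was not called, beside 1.96 for the mouse assay. miR-142-5p differed by 0.86 and was not called, beside -3.91 for miR-142-3p. With lists of 2 to 5 assays, 0 calls do not set a list apart from those shares. The part of these sources in the levels of the pair was not tested.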

How the data were processed

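Per the labels' protocols, blood was drawn at necropsy, RNA from 50 µL of each serum was reverse transcribed, and 40 cycles of SYBR Green PCR followed on a set of 2 Exiqon serum panels. The authors deposited 1 score for each assay and serum, a Ct that the file calls non-normalized. Threshold setting, plate calibration and detection limit are not given in the sources used here, and an empty cell was read as no detection. The table held 365 assays, 8 of them controls. miR-322-5p, miR-503-5p and all lists were chosen with earlier results of these data known.

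Assays with a value in at least 5 tumor, 5 tumor-free and 2 wild-type mice were tested (338, with 19 set aside). All 3 groups entered 1 limma fit (version 3.58.1, R 4.3.3; lmFit and eBayes, two-sided) with Benjamini-Hochberg adjustment over 338 assays within each comparison and a threshold of 0.05. The fit was checked on simulated data with independent noise and no missing values, for tumor against tumor-free mice only. The simulated shifts were larger than any difference of the pair or cluster in that comparison, and comparisons with wild type were not checked. An assay counted as called if it passed. Relations within groups used 100000 two-sided permutations within groups. Exact permutation p-values cannot lie below 0.000583 for 7 against 7 mice, 0.00833 for 7 against 3 or 0.0278 for 7 against 2. The labels name each sample as a mouse; replicates were numbered in accession order. No 2 sera held the same values (smallest SD of their difference 0.841 cycles). Other steps ran in Python 3.11.15 (scipy 1.17.1, pandas 2.3.3, numpy 2.4.6). Genes named were the pair, the cluster and seed family assays, the 5 assays most like each of the pair, and miR-451a and miR-23a-3p. From the marker lists, miR-223-3p, miR-142-3p, miR-142-5p and miR-802-5p were named after their values were seen. Marker lists covered red blood cell, platelet and myeloid, endothelium, skeletal and heart muscle, and liver. Of 14 mouse assays, 13 matched RefSeq by name and 1, miR-497-5p, by gene symbol. Alternatives covered scaling, missing values, a Ct limit of 35, the filter, the samples fitted, covariates, variance, exact permutation and each mouse left out. The label of each transgenic mouse holds a number whose meaning is not given. Of these, 2 numbers recur in both groups (3 tumor and 3 tumor-free mice). Mice within a group also share numbers: tumor replicates 2 and 3, tumor-free replicates 4 and 5, and tumor-free replicates 6 and 7. Whether mice that share a number are related is not known, and the SDs and SEs given treat all mice as independent. Fits with the number as a block were added after seeing the data.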

Additional observations from a re-analysis of the deposited data

Results flagged for a closer look

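Of 54 sets of tumor or tumor-free values examined for 1 far from the rest, 3 stood out, and chance alone gives about 1 in 20. miR-450a-5p was at -3.92 in tumor replicate 5, below the next lowest tumor mouse at -2.54. miR-450b-3p was at -6.59 in tumor replicate 6, below the next lowest at -4.28. The mouse assay of miR-450a-5p came up 2.67 cycles earlier than the rat assay in tumor-free replicate 2, above the next highest difference of 1.93. No value of miR-322-5p or miR-503-5p was among them.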

How the results depend on the processing

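With 3 wild-type mice, 1 of them without a value for miR-503-5p, every comparison with wild type is imprecise, and assays near a Ct of 37 are close to the limit of detection. Over the alternatives other than leaving out a mouse, 194 of 239 values kept their sign, call and size (within the spread between mice, or 1.5 times for a count) and 7 changed sign; with each mouse left out 272 of 306 kept them and 2 changed sign. Replicate numbers only give an order within each group and pair no mice. Some numbers in the transgenic labels are shared by mice of the same group, and 2 of the 9 recur in both transgenic groups. Deviations of same-numbered tumor and tumor-free mice correlated from -0.46 to 0.71 over 4 pairs, so that the numbers are not shown to pair the mice. With the number as a fixed replicate block, the difference between tumor and tumor-free mice was 0.86 for miR-322-5p and turned to -0.40 for miR-503-5p, with 0 calls over the panel in limma (20 at an unadjusted p under 0.05); this block rests on the 3 tumor and 3 tumor-free mice of those numbers. As a random replicate block (correlation 0.0703), it gave 1.31 and 0.48, and calls over the panel of 6, 3 and 28 in the 3 comparisons.

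The difference of miR-322-5p between tumor-free and wild-type mice moved to -1.95 (raw Ct) and -2.08 (spike-ins), and that between tumor and wild-type mice turned to -0.98 and -0.87. The difference of miR-503-5p between tumor-free and wild-type mice moved to 1.76 with spike-ins, to 4.0 with missing values at a Ct of 37, to 1.77 without wild-type replicate 2 and to 2.80 without wild-type replicate 3, and that between tumor and wild-type mice to 4.51 with missing values at 37. With each mouse left out, the differences of miR-322-5p ran from 1.15 to 1.51 (tumor against tumor-free), -1.12 to -0.78 (tumor-free against wild type) and 0.21 to 0.58 (tumor against wild type), and those of miR-503-5p from 0.33 to 0.69, 1.77 to 2.80 and 2.27 to 3.31.

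The relation of the pair passed with reference miRNAs (r = 0.70), raw Ct (0.81), spike-ins (0.84) and without tumor replicate 6 (0.76), over 0.40 to 0.76 with each mouse left out. That of miR-322-5p with the hemolysis index turned to -0.65 with reference miRNAs, -0.12 with raw Ct, -0.079 with spike-ins, -0.027 without tumor replicate 5 and -0.098 without tumor replicate 7 (-0.098 to 0.22 with each mouse left out). That of miR-503-5p was -0.81 with reference miRNAs, 0.15 with missing values at 37 and -0.52 to -0.25 with each mouse left out.

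Calls over the panel between tumor and tumor-free mice in limma numbered 0 with reference miRNAs (44 at an unadjusted p under 0.05), raw Ct (17), spike-ins (14), exact permutation (57) and without the 4 sera of a single decimal ending (30), 8 with the 2 groups alone, 13 with the hemolysis index, and 2 to 10 with each mouse left out. Between tumor-free and wild-type mice they numbered 0 with raw Ct (63 unadjusted), spike-ins (73) and exact permutation (85), 1 with the median, with the decimal ending as a term or without those 4 sera, and with trend and robust variance, 4 with reference miRNAs and with missing values at 37, 5 with the hemolysis index, 15 with the 2 groups alone, and 1 to 9 with each mouse left out. Between tumor and wild-type mice they numbered 15 with raw Ct, 8 with spike-ins, 1 with the 2 groups alone, 14 without those 4 sera, 0 with exact permutation (45 unadjusted), and 10 to 39 with each mouse left out. Cluster calls were 0 to 1 between tumor and tumor-free mice and 0 to 1 between tumor and wild-type mice with each mouse left out. Seed family calls between tumor and wild-type mice were 1 with the median, reference miRNAs, a Ct limit of 35, only assays detected in all sera, and trend and robust variance, and 0 to 1 with each mouse left out. The cause was not tested.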
